A study of Caenorhabditis elegans with 20 samples.

Results

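The bHLH-PAS genes of *C. elegans* were examined across strain and curcumin treatment: *ahr-1*, *aha-1*, *hif-1*, *cky-1* and *hlh-34*. These 5 genes were taken by name, each through a probe set that the array's annotation gives 1 gene symbol, and each had exactly 1 such probe set among 29317 probe sets on the array, of which 25600 carry 1 symbol. Affymetrix gene arrays measured the RNA of whole worms in 4 groups of 5 arrays. The groups were wild-type worms (N2) with 0.1% DMSO, the vehicle, wild-type worms with 100 µM curcumin, *ahr-1(ju145)* worms (strain CZ2485) with 0.1% DMSO, and *ahr-1(ju145)* worms with 100 µM curcumin. By the study's methods the curcumin plates also held 0.1% DMSO, so the groups named by DMSO had the vehicle alone. Curcumin is the yellow polyphenol of turmeric. All worms were kept on their treatment from the egg until day 3, and each array held a pool of many worms from 1 of 5 independent replicates. ju145 is a loss-of-function allele present in every cell, and the study describes it as a point mutation. Because whole worms were used, fewer cells of a type and less RNA per cell cannot be told apart.

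Proteins of the bHLH-PAS family bind DNA in pairs. A partner whose abundance or activity is regulated, such as the ligand-activated aryl hydrocarbon receptor or the hypoxia-inducible factor, joins a partner that is present more steadily, ARNT in mammals and AHA-1 in worms. AHR-1 is the worm aryl hydrocarbon receptor and acts in the fate of several classes of neurons. HIF-1 is held low by hydroxylation through EGL-9 and degradation through VHL-1, so its activity is set largely at the protein. CKY-1 is related to mammalian NPAS4, and HLH-34 to the mammalian NPAS1 and NPAS3 and SIM factors.

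All values were the authors' log2 RMA values, in which a step of 1 is a doubling of signal and a level of 1 probe set cannot be set against that of another. Differences were tested with limma over all probe sets, and a gene was called at an adjusted p under 0.1, the threshold of the study's methods. The last replicate of *ahr-1(ju145)* with curcumin, which those methods leave out for its quality, stayed outside the fit of 19 arrays and its values are named apart. The comparisons share arrays, so that each group enters more than 1 of them.

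Two-sided tests called 530 probe sets (1.81% of those tested) between the strains under DMSO, 146 higher and 384 lower in *ahr-1(ju145)*, and 162 (0.553%) between the strains under curcumin. Curcumin called 42 probe sets (0.143%) in wild-type worms, 19 (0.0648%) in *ahr-1(ju145)* worms, and for the difference between these effects limma called 0 (0%), with 985 at an unadjusted p under 0.05. With the replicate number as a block, 931 probe sets were called between the strains under DMSO. Without replicate 1 or replicate 5 of wild-type with DMSO that count was 141 and 227, and without replicate 1, 2 or 3 of *ahr-1(ju145)* with DMSO it was 343, 291 and 201. Arrays of 1 group correlated at 0.988 to 0.995, and none was identical to another. A listed gene counts as measured where a probe set with 1 symbol carries it. Of the tissue markers these were 12 of 12 for neurons, 10 of 10 for intestine, 10 of 10 for body wall muscle and 11 of 11 for germline, while sperm had 5 of 12. Every probe set gives a value, so these counts do not show whether a tissue was detected.

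**Figure D1:**
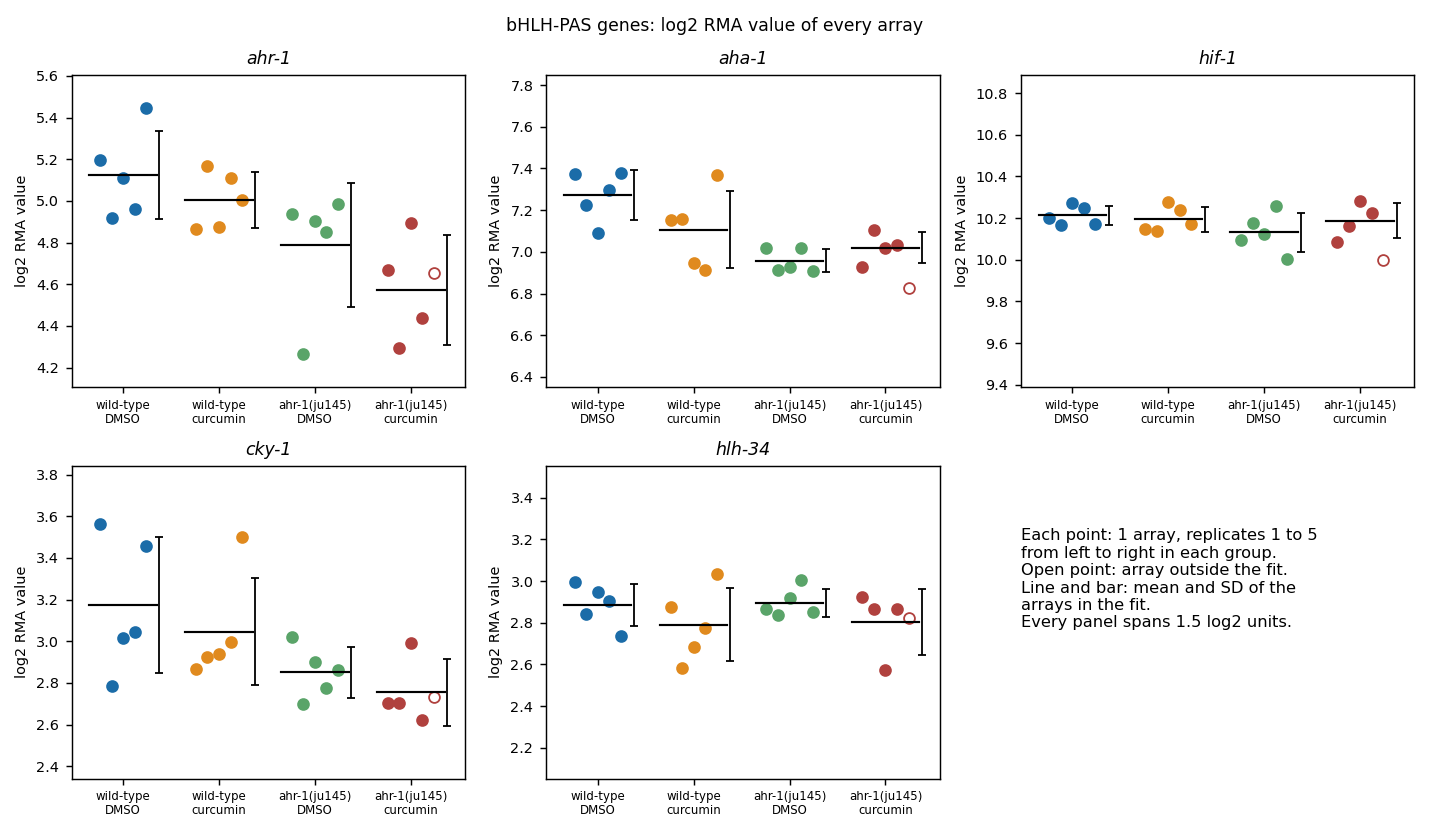
Log2 RMA value (vertical axis) of the 5 bHLH-PAS genes on every array, by group, with the mean and SD of the arrays in the fit; every panel spans 1.5 log2 units and the open point is the array left out of the fit. The 5 aha-1 values of ahr-1(ju145) with DMSO lie below all 5 of wild-type with DMSO, while the groups of the other genes overlap.

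*aha-1* was lower in *ahr-1(ju145)* than in wild-type under DMSO, and it was the only bHLH-PAS gene called in any comparison. The gene (C25A1.11, chromosome I, probe set 18465559) encodes the shared partner of AHR-1 and HIF-1. In wild-type with DMSO the 5 arrays read 7.37, 7.22, 7.09, 7.30 and 7.38. In *ahr-1(ju145)* with DMSO they read 7.02, 6.92, 6.93, 7.02 and 6.91. Every mutant array was below every wild-type array, so the mutant was also lower within each replicate number, by 0.16 at the least and 0.47 at the most.

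The difference was -0.31 on the log2 scale (SE 0.08, 95% interval -0.48 to -0.14), a fall to 0.805 of the wild-type signal, with limma's adjusted p = 0.0796. The group means were 6.96 ± 0.06 against 7.27 ± 0.12 (SD, 5 arrays each). Of all probe sets, 384 (1.31%) were called lower in this comparison and 537 (1.83%) were lower without overlap, so that 1 such gene among 5 is a result about *aha-1* and not about the family. The call lay close to the threshold. The adjusted p ranged from 0.0332 to 0.206 over the alternatives, and the call was kept with the replicate block (adjusted p = 0.0546) and with all 20 arrays (0.0816).

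The call was lost when any of 8 single arrays was left out, all from the groups compared. Without replicate 1, 2, 4 or 5 of wild-type with DMSO the adjusted p was 0.206, 0.111, 0.121 and 0.184. Without replicate 1, 2, 3 or 5 of *ahr-1(ju145)* with DMSO it was 0.110, 0.162, 0.173 and 0.154. The log2 difference itself stayed between -0.36 and -0.29 over all 19 arrays left out in turn, and 11 of these fits kept the call. Most of the 11 left out an array of the curcumin groups, which does not enter this difference. Among the arrays compared, only replicate 3 of wild-type and replicate 4 of *ahr-1(ju145)*, both with DMSO, could be left out with the call kept.

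**Figure D2:**
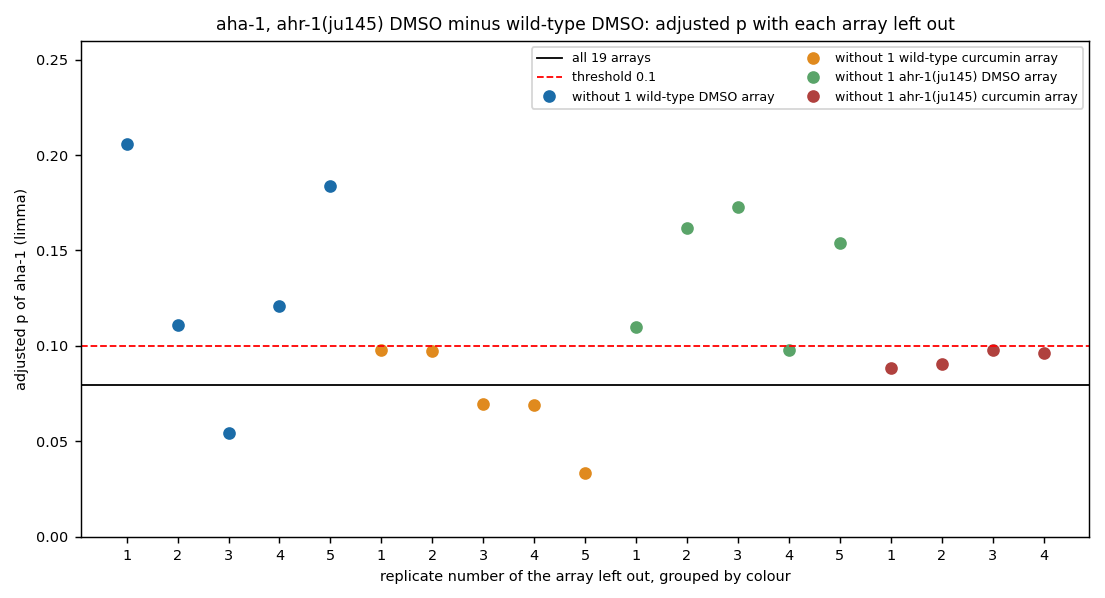
Adjusted p of aha-1 in limma (vertical axis) for ahr-1(ju145) with DMSO against wild-type with DMSO, with each of 19 arrays left out in turn (horizontal axis, replicate number, coloured by group). The black line is the fit of all 19 arrays (0.0796) and the dashed line the threshold of 0.1; 8 points lie above it, at up to 0.206.

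With curcumin the *aha-1* levels of both strains lay closer together. Wild-type worms with curcumin read 7.15, 7.16, 6.95, 6.91 and 7.37. In *ahr-1(ju145)* with curcumin the 4 arrays in the fit read 6.92, 7.10, 7.02 and 7.03, and the array left out read 6.82. The mutant arrays in the fit fell inside the wild-type range and the array left out lay below it, and the difference of -0.09 (95% interval -0.27 to 0.09) was within the spread of the arrays (limma adjusted p = 0.84).

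Curcumin went with a log2 difference of *aha-1* of -0.17 in wild-type (95% interval -0.34 to 0.005, limma unadjusted p = 0.0564, adjusted p = 0.775). In *ahr-1(ju145)* it was 0.06 (-0.12 to 0.24, adjusted p = 0.939). Within replicate numbers *aha-1* was lower with curcumin in 5 of 5 in wild-type, with differences from -0.38 to -0.01, and in 1 of 4 in *ahr-1(ju145)*. The difference between both effects was 0.23 (95% interval -0.02 to 0.47, unadjusted p = 0.0707 in limma, adjusted p = 1.00), so that the effects were not shown to differ. From the highest mean to the lowest the groups stood as wild-type with DMSO, wild-type with curcumin, *ahr-1(ju145)* with curcumin and *ahr-1(ju145)* with DMSO. Neighbours in that order overlapped.

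The probe set of *ahr-1* itself still gave signal in *ahr-1(ju145)*, with lower means there under both treatments that did not pass the test. The gene (C41G7.5, chromosome I, probe set 18452723) read 5.20, 4.92, 5.11, 4.96 and 5.45 in wild-type with DMSO. In *ahr-1(ju145)* with DMSO it read 4.94, 4.27, 4.90, 4.85 and 4.98. The mutant was below its own replicate number in 5 of 5, but 2 mutant arrays lay inside the wild-type range and replicate 2 stood far below the rest. As ju145 is a point mutation, the level of the transcript does not check the genotype.

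The difference under DMSO was -0.34 (SE 0.14, 95% interval -0.63 to -0.05), with an unadjusted p of 0.0257 and an adjusted p of 0.35 in limma. Without replicate 2 of *ahr-1(ju145)* with DMSO it was -0.21 (adjusted p = 0.579). Under curcumin, wild-type worms read 4.86, 5.17, 4.88, 5.11 and 5.00. The 4 mutant arrays read 4.67, 4.29, 4.89 and 4.44, and the array left out 4.65. All but replicate 3 of the mutant lay below every wild-type array.

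That difference under curcumin was -0.43 (SE 0.15, 95% interval -0.74 to -0.12; limma unadjusted p = 0.00894, adjusted p = 0.307). Curcumin itself went with differences of *ahr-1* of -0.12 in wild-type (95% interval -0.41 to 0.17) and -0.22 in *ahr-1(ju145)* (-0.52 to 0.09). Neither passed the test, at limma adjusted p of 0.964 and 0.804. The group means stood in the order 5.13, 5.00, 4.79 and 4.57 from wild-type with DMSO through wild-type with curcumin and *ahr-1(ju145)* with DMSO to *ahr-1(ju145)* with curcumin. Each neighbouring pair differed by less than its pooled SD.

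*hif-1* varied least of the 5 genes, with an SE of 0.06 for the strain difference under DMSO against 0.08 to 0.14 for the others. The annotation gives the symbol of its probe set (F38A6.3, chromosome V, probe set 18569402) under more than 1 gene number, and the 6 RefSeq transcripts of the gene were not resolved. Wild-type with DMSO read 10.20, 10.17, 10.27, 10.25 and 10.17, and wild-type with curcumin 10.15, 10.14, 10.28, 10.24 and 10.17. The mutant read 10.10, 10.18, 10.12, 10.26 and 10.01 with DMSO and 10.08, 10.16, 10.28 and 10.22 with curcumin, with 9.997 on the array left out. All 4 groups overlapped.

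The intervals of *hif-1* bound what these arrays could have missed. The difference between the strains was -0.08 under DMSO (95% interval -0.20 to 0.04, limma adjusted p = 0.675) and -0.01 under curcumin (-0.14 to 0.12, adjusted p = 0.987). Curcumin went with -0.02 in wild-type (95% interval -0.14 to 0.11) and with 0.06 in *ahr-1(ju145)* (-0.08 to 0.19), at limma adjusted p of 0.997 and 0.913. A transcript level says nothing of the amount of HIF-1 protein.

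*cky-1* (C15C8.2, chromosome V, probe set 18563285) and *hlh-34* (T01D3.2, chromosome V, probe set 18594814) lay at the dim end of the array. Both probe sets had means under the 25th percentile of all probe sets, and the values give no call of presence, so whether either transcript was detected cannot be said. *cky-1* read 3.56, 2.78, 3.01, 3.05 and 3.46 in wild-type with DMSO and 3.02, 2.70, 2.90, 2.77 and 2.86 in *ahr-1(ju145)* with DMSO. The wild-type mean was carried by replicates 1 and 5, and the groups overlapped.

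The *cky-1* difference was -0.32 (95% interval -0.62 to -0.03), at an unadjusted p of 0.0342 and an adjusted p of 0.39 in limma. The mutant was lower in 5 of 5 replicate numbers, by 0.08 to 0.59. Under curcumin *cky-1* read 2.87, 2.93, 2.94, 2.99 and 3.50 in wild-type. It read 2.70, 2.70, 2.99 and 2.62 in *ahr-1(ju145)*, with 2.73 on the array left out. The single high array of wild-type, replicate 5, lay above all others in this comparison.

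The *cky-1* difference under curcumin was -0.29 (95% interval -0.60 to 0.02, limma adjusted p = 0.613), and without replicate 5 of wild-type with curcumin it was -0.18 (adjusted p = 0.878). Curcumin went with -0.10 in *ahr-1(ju145)* and -0.13 in wild-type worms, at limma adjusted p of 0.946 and 0.96. In *hlh-34* the 20 values ran from 2.57 to 3.03 with no group apart. Its differences were 0.01 between the strains under DMSO (95% interval -0.17 to 0.19), 0.02 under curcumin (-0.17 to 0.20), and -0.09 with curcumin in either strain. None passed the test (limma adjusted p of 0.894 to 0.983).

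**Figure D3:**
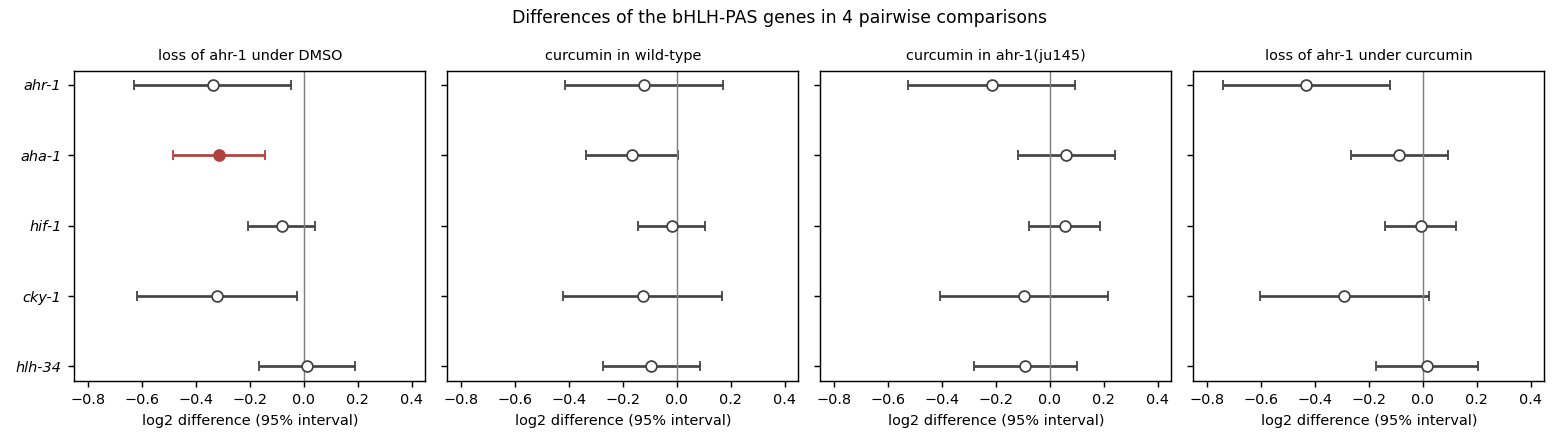
Log2 difference with its 95% interval (horizontal axis) of the 5 bHLH-PAS genes (vertical axis) in the 4 pairwise comparisons. The filled red point, aha-1 between the strains under DMSO at -0.31, is the only call; the intervals of ahr-1 in both strain comparisons and of cky-1 under DMSO also lie below 0 without passing the adjusted test.

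Side by side, 4 of the 5 genes had lower means in *ahr-1(ju145)* under DMSO. The median difference of -0.31, against 0.02 over all probe sets, is that of *aha-1* itself. At an unadjusted p under 0.05 in limma, 3 of 5 were lower, where 1654 of all probe sets (5.64%) were. Under curcumin 4 of 5 again had lower means, with a median of -0.09, again the *aha-1* value, against 0.01 over all probe sets. There 1 of 5 was lower at an unadjusted p under 0.05 in limma, where 1331 of all (4.54%) were. Both strain comparisons rest on different arrays, but the genes were chosen with results of these data known, and for the difference between the curcumin effects 0 of 5 passed.

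Over the 19 arrays, *cky-1* ran with both *ahr-1* (Pearson r = 0.73) and *aha-1* (r = 0.72), and *ahr-1* with *aha-1* less so (r = 0.47). With the group means taken out these became 0.54, 0.59 and 0.09. *hif-1* and *hlh-34* had r between -0.14 and 0.20 with every other member. The arrays share their groups, so r is given as a description only.

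The probe sets most like each gene, among 25599 others with 1 symbol, were found by the same r over 19 arrays. That r includes the differences between groups, so a call of such a probe set between the strains follows in part from how it was picked. For *aha-1* they were C26B9.3 (r = 0.91), *insc-1* (0.91) and *eva-1* (0.90), and with the group means taken out r was 0.84, 0.80 and 0.81. *insc-1* is the worm relative of fly inscuteable, and *eva-1* encodes a receptor used in neuronal guidance. All 3 were called lower in *ahr-1(ju145)* under DMSO, at -1.05, -0.64 and -0.99, where 384 of all probe sets (1.31%) were.

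For *ahr-1* the closest were F13D11.20 (r = 0.88), *cdh-1* (0.87), a Dachsous-like cadherin, and Y59C2A.3 (0.85), each called lower in *ahr-1(ju145)* under DMSO, at -1.37, -0.47 and -0.34. For *cky-1* they were T20F5.4 (0.89), *ptp-1* (0.89), a tyrosine phosphatase, and C03C10.5 (0.88), of which T20F5.4 and *ptp-1* were called lower, at -1.66 and -0.63. Those near *hif-1* were *ugt-50* (0.89), a UDP-glucuronosyltransferase gene, Y11D7A.10 (0.87) and *tax-6* (0.86), the catalytic subunit of calcineurin, and none of the 3 was called. *hlh-34* had no probe set as close as the other genes had, the highest being *srg-34* (0.72), *col-116* (0.71) and *nssp-19* (0.68).

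Genes known from early embryos moved with *aha-1* and *cky-1*, and their part in these results was not tested beyond the fit given here. All 34 listed embryo genes were measured, among them *end-1*, *med-1* and *pha-4*. Their summed linear signal ran from 5335 to 6925 in wild-type with DMSO and from 4885 to 6015 in *ahr-1(ju145)* with DMSO. It ran from 4779 to 6523 in wild-type with curcumin and from 4838 to 4944 in *ahr-1(ju145)* with curcumin. The groups overlapped under DMSO and under curcumin, with the means of the mutant lower.

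Between the strains under DMSO, 1 embryo gene was called higher and 2 lower, where 146 of all probe sets were called higher and 384 (1.31%) lower. The list had a median of -0.09, against 0.02 over all probe sets, with 23 of 34 below 0. At an unadjusted p under 0.05 in limma, 2 were higher and 7 lower, where 1654 of all probe sets (5.64%) were lower. The mean log2 value of the list had r = 0.66 with *aha-1* and 0.67 with *cky-1* over the 19 arrays, and 0.66 and 0.55 with the group means taken out. For *ahr-1* these were 0.52 and 0.18, and for *hif-1* -0.36 and -0.63. The wild-type arrays in which *cky-1* was highest, replicates 1 and 5 with DMSO and replicate 5 with curcumin, were also the highest of their groups in the embryo mean, at 6.10, 5.99 and 5.996.

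With that mean as a covariate, an alternative added after the data had been seen, the *aha-1* difference was -0.24 and was no longer called (limma adjusted p = 0.144). The *ahr-1* difference was then -0.30 under DMSO and -0.38 under curcumin, and the *cky-1* difference under DMSO -0.21. The embryo mean was itself lower in the mutant, at 5.84 against 5.94 with DMSO and 5.67 against 5.82 with curcumin. *vab-7*, in the embryo list, is also listed below among genes of neurons in whose fate AHR-1 takes part. This fit therefore cannot tell embryo content apart from an effect of the strain. Germline markers ran the other way, at r = -0.66 with *aha-1* and -0.74 with *cky-1*, and body wall muscle markers at -0.62 and -0.70. Of 11 germline and 10 muscle genes 0 were called between the strains under DMSO, where 530 of all probe sets (1.81%) were. Their medians were 0.05 and 0.15, against 0.02 over all probe sets. The part of germline and muscle in these results was not tested.

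**Figure D4:**
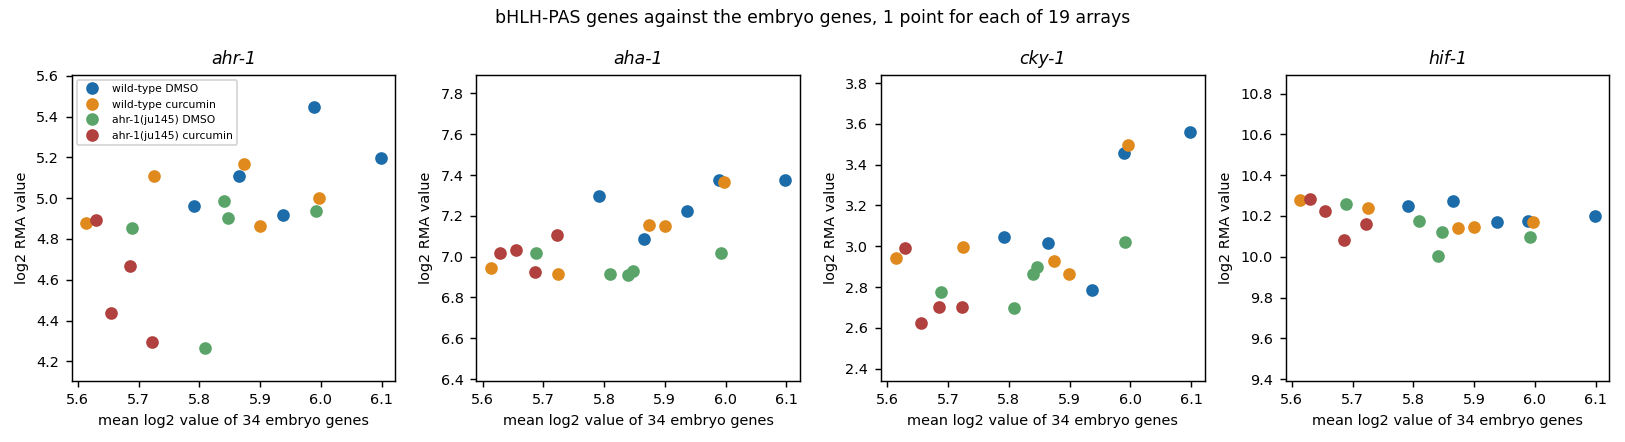
Log2 RMA value of ahr-1, aha-1, cky-1 and hif-1 (vertical axes, each spanning 1.5 log2 units) against the mean log2 value of 34 embryo genes (horizontal axis), 1 point for each of 19 arrays, coloured by group. aha-1 and cky-1 were higher on arrays with a higher embryo mean (r = 0.66 and 0.67), and hif-1 varied little.

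Around AHR-1, the chaperones that hold the receptor in its inactive complex did not pass the test. In mammals these include HSP90 and the co-chaperone p23, and the worm list held, among others, *hsp-90*, *daf-41* (p23), *cdc-37*, *sti-1*, *pph-5*, *chn-1* and *hsp-1*. Of the 8 listed genes, 0 were called in any of the 4 pairwise comparisons, with 0 at an unadjusted p under 0.05 in limma. Of all 29317 probe sets, 0.0648% to 1.81% were called, and 1902 to 3270 were at an unadjusted p under 0.05. With shares that low, 0 calls among 8 genes do not set the list apart. Their medians were 0.03 between the strains under DMSO and -0.01 with curcumin in either strain. *hsp-90* differed by 0.05 between the strains under DMSO (95% interval -0.05 to 0.16).

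Among the regulators of HIF-1, 0 of 9 were called in any pairwise comparison, where 0.0648% to 1.81% of all probe sets were. The lowest unadjusted p was that of *vhl-1*, which marks HIF-1 for degradation and differed by -0.23 between the strains under curcumin (limma adjusted p = 0.45), where *elc-1*, the Elongin C of the same ligase, differed by -0.13 (adjusted p = 0.532). *egl-9*, the prolyl hydroxylase, differed by -0.10 under DMSO and -0.14 under curcumin, at adjusted p of 0.682 and 0.662. *swan-1*, a WD40 protein that restrains HIF-1, was at -0.16 under DMSO (adjusted p = 0.609) and at -0.17 with curcumin in wild-type (adjusted p = 0.852). The medians of the list were -0.03 and -0.11 between the strains, against 0.02 and 0.01 over all probe sets.

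The HIF-1 target genes, which share *egl-9* and *rhy-1* with the regulators, likewise had 0 of 14 called, beside 0.0648% to 1.81% of all probe sets. *cysl-2*, of the cysteine synthase family, was nearest to the threshold. It had means of 6.44 ± 0.14 with DMSO and 6.96 ± 0.13 with curcumin in *ahr-1(ju145)* (SD, 5 and 4 arrays). The ranges of 6.35 to 6.69 and 6.87 to 7.14 did not overlap, where 354 of 29317 probe sets were higher without overlap. The difference was 0.52 (95% interval 0.29 to 0.75, limma adjusted p = 0.132), and in wild-type it was 0.28 (0.06 to 0.49, adjusted p = 0.623).

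It passed with a further quantile normalization (adjusted p = 0.0913), with the replicate block (0.0917), without replicate 4 of *ahr-1(ju145)* with DMSO (0.0792) or without replicate 5 of wild-type with curcumin (0.0857). The difference between the *cysl-2* effects of curcumin in the strains did not pass. Other genes of the list did not run with *cysl-2*: *phy-2*, a collagen prolyl hydroxylase subunit, was at -0.20 and *oac-54*, an acyltransferase, at -0.40 with curcumin in *ahr-1(ju145)*, at adjusted p of 0.648 and 0.641. The list's medians with curcumin were -0.06 in *ahr-1(ju145)* and 0.05 in wild-type worms.

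Genes of neurons in whose fate AHR-1 takes part held 1 of 19 called in each pairwise comparison, where 1.81% and 0.553% of all probe sets were called between the strains under DMSO and under curcumin, and 0.143% and 0.0648% with curcumin in wild-type worms and in the mutant. *unc-86*, a POU homeobox gene of touch neuron and other lineages, was lower in *ahr-1(ju145)*. Its means were 5.34 ± 0.41 in wild-type and 4.50 ± 0.18 in the mutant with DMSO (SD, 5 arrays each). The ranges of 4.77 to 5.87 and 4.18 to 4.64 did not overlap, where 537 of all probe sets (1.83%) were lower without overlap. The difference was -0.84 (SE 0.17, limma adjusted p = 0.0326). Every alternative kept that call, with adjusted p up to 0.0936.

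Under curcumin *unc-86* stood at 4.10 ± 0.16 in *ahr-1(ju145)* and 4.99 ± 0.32 in wild-type worms (SD, 4 and 5 arrays), a difference of -0.89 (limma adjusted p = 0.0534). That call was lost without replicate 1, 2 or 5 of wild-type with curcumin (adjusted p = 0.103, 0.144 and 0.13) and without replicate 1 or 3 of *ahr-1(ju145)* with curcumin (0.159 and 0.151). It was also lost with the compared groups alone (0.121), with the embryo mean as a covariate (difference -0.62, adjusted p = 0.162) and at a threshold of 0.05. *cat-4*, GTP cyclohydrolase I, which serves the synthesis of dopamine and serotonin, was higher with curcumin by 0.92 in wild-type (SE 0.15, adjusted p = 0.0276) and by 0.94 in *ahr-1(ju145)* (SE 0.16, adjusted p = 0.0679). The wild-type call was kept in every alternative. Between the strains *cat-4* differed by -0.05 under DMSO and -0.03 under curcumin, at limma adjusted p of 0.959 and 0.981.

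The *cat-4* call in *ahr-1(ju145)* was lost without replicate 1 of wild-type with DMSO (adjusted p = 0.102). It was also lost without replicate 1, 3 or 5 of *ahr-1(ju145)* with DMSO (0.176, 0.131 and 0.185) and without replicate 1, 2 or 3 of *ahr-1(ju145)* with curcumin (0.293, 0.137 and 0.325), with the compared groups alone (0.223), with the embryo mean as a covariate (0.338) and at a threshold of 0.05. The other 17 genes, which include soluble guanylate cyclases of oxygen-sensing neurons (*gcy-32* to *gcy-37*) and the touch receptor genes *mec-3*, *mec-4*, *mec-7* and *mec-17*, were not called. The list's median lay at -0.02 between the strains under DMSO, against 0.02 over all probe sets. Of 12 genes used by neurons in general, 0 were called in the pairwise comparisons, where 0.0648% to 1.81% of all probe sets were. Their median between the strains under DMSO was -0.05.

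Outside the PAS family, 8 of 9 listed bHLH and coactivator genes were measured. In the pairwise comparisons 0 of them were called, where 0.0648% to 1.81% of all probe sets were. *hlh-2*, the worm E protein that pairs with tissue-specific bHLH factors, had the lowest unadjusted p. With DMSO it stood at 7.60 ± 0.12 in *ahr-1(ju145)* and 7.92 ± 0.09 in wild-type worms (SD, 5 arrays each). The ranges of 7.41 to 7.69 and 7.82 to 8.03 did not overlap, where 537 of all probe sets (1.83%) were lower without overlap. The difference was -0.32 (SE 0.09, limma adjusted p = 0.133), and it passed with the replicate block (adjusted p = 0.0452), with array weights (0.0971), and without replicate 3 or 5 of wild-type with curcumin (0.0924 and 0.053).

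Under curcumin *hlh-2* differed by -0.36 between the strains (limma adjusted p = 0.166), with overlapping groups, and passed without replicate 3 of wild-type with curcumin (0.0526). The coactivator *cbp-1*, the worm CBP/p300, was at -0.09 under DMSO (adjusted p = 0.667) and -0.13 under curcumin, neither passing. *sbp-1*, the worm SREBP, was at 0.18 with curcumin in wild-type (adjusted p = 0.666). The list's median between the strains under DMSO was -0.09.

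**Figure D5:**
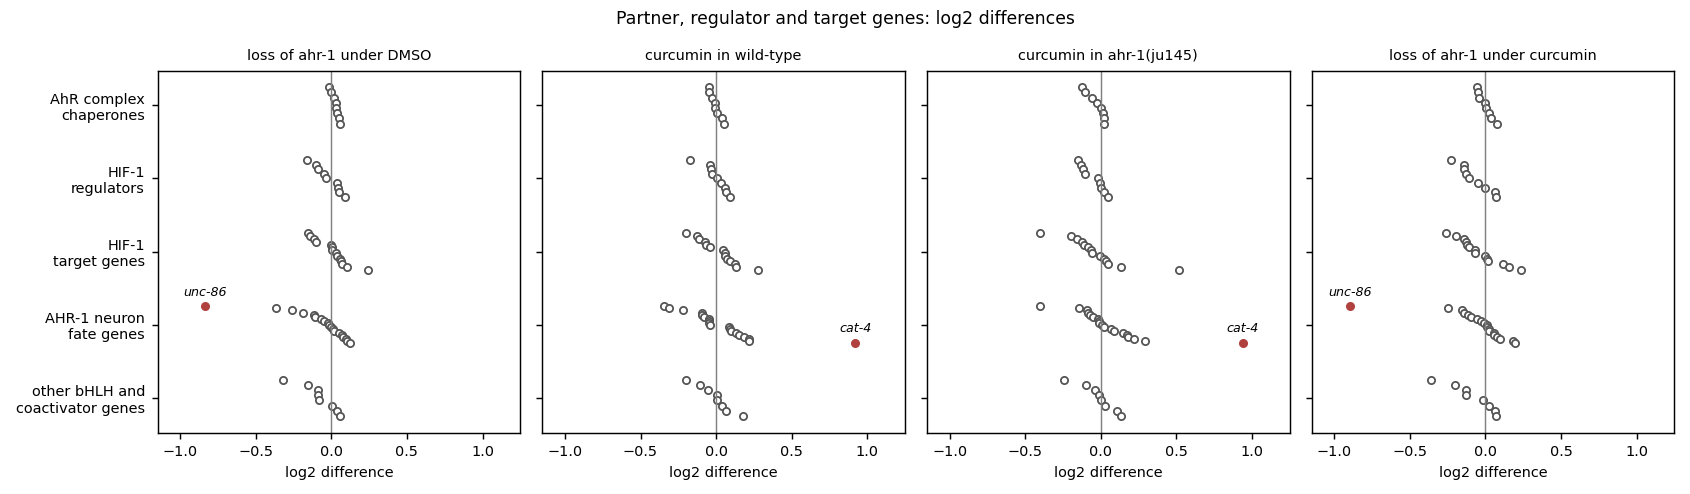
Log2 differences (horizontal axis) of the genes in 5 lists around the bHLH-PAS factors (vertical axis, 1 point for each measured gene) in the 4 pairwise comparisons, with called genes filled and named. unc-86 at -0.84 and -0.89 between the strains and cat-4 at 0.92 and 0.94 with curcumin are the only calls.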

How the data were processed

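RNA of whole *C. elegans* in 4 groups of 5 samples was hybridised to Affymetrix gene arrays, 1 array for each sample. The deposited values are log2 values that the authors made with RMA (background correction, quantile normalization and a summary of probes) in the oligo package, and which genome build the annotation follows is not stated in the sources used. Array values carry no read depth, and their number limits the precision. The replicates were independent according to the study's methods, which leave out 1 array of *ahr-1(ju145)* with curcumin for its quality.

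All 29317 probe sets were fitted with limma 3.58.1 in R 4.3.3 on 19 arrays, with a mean per group, no block, two-sided moderated tests, 95% intervals and Benjamini-Hochberg adjustment within each comparison at 0.1. The fit was tested on simulated data. Genes were named from probe sets with 1 symbol; 592 probe sets with several symbols and 3125 with none entered the fit unnamed, and 25549 of the 25600 with 1 symbol have a gene number in the reference gene table. Where a listed gene had several probe sets, the brightest on average stood for it.

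The members, lists and tests were chosen with earlier results of these data known. Named were the 5 bHLH-PAS genes, the called genes of each role list or, where none was called, genes among the 3 with the lowest unadjusted p in each comparison, and the 3 probe sets with the highest r to each member. Genes given to show what a list holds were named besides. Whether replicate numbers pair the arrays was checked from the data, since no label states it. The deviations of equal numbers correlated at 0.114 to 0.431 in all 5 pairs of the strain comparison under DMSO. The blocked value is therefore given there for *aha-1* and *hlh-2*, though not for every gene. In the others all pairs were above 0 but the lowest were weaker, at 0.0644 and 0.0575 for curcumin in wild-type and in the mutant. For the strains under curcumin the lowest was 0.0843. Alternatives were the block, all 20 arrays, a fit of only the compared groups, centring, quantile normalization repeated, array weights, trend and robust variance options, a filter at the 25th percentile, probe sets with 1 symbol, a threshold of 0.05, each array left out, and, added after the data had been seen, the embryo mean as a covariate. 

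The other experiments of the study were not used here, and the values of 1 listed chaperone gene are not reported here.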

Additional observations from a re-analysis of the deposited data

Results flagged for a closer look

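In 3 of 20 groups of arrays (5 genes in 4 groups), 1 array lay far from the others relative to the range of its group. By chance about 1 in 20 such groups stands out. *ahr-1* read 4.27 in replicate 2 of *ahr-1(ju145)* with DMSO, where the next array read 4.85. *cky-1* read 3.50 in replicate 5 of wild-type with curcumin, above the next at 2.99, and *hlh-34* read 2.57 in replicate 3 of *ahr-1(ju145)* with curcumin, below the next at 2.86. The arrays differ between the 3 genes, and *cky-1* and *hlh-34* are dim.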

How the results depend on the processing

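Of the values of single bHLH-PAS genes under the alternatives, 688 kept their direction and side of the threshold, 11 fell short of it and 36 changed sign, nearly all around 0. The *aha-1* call and with it the count of called bHLH-PAS genes (1) went to 0 with a further quantile normalization (-0.27, adjusted p = 0.14), at a threshold of 0.05 and with the embryo mean as a covariate, and ran from 0 to 1 over the arrays left out. The counts of all probe sets depended more on the setting. Between the strains under DMSO 931 were called with the replicate block and 242 at 0.05 (141 to 656 over the arrays left out). Between the strains under curcumin it was 41 with the compared groups alone, 368 with the block, 61 at 0.05 and 60 with the embryo mean (47 to 342, lowest without replicate 3 of *ahr-1(ju145)* with curcumin and highest without replicate 3 of wild-type with curcumin). For curcumin in wild-type it was 24, 219 with the block and 23 with the embryo mean (15 to 105, highest without replicate 5 of wild-type with curcumin). For curcumin in *ahr-1(ju145)* it was 3 with the compared groups alone, 67 with the block, 12 with trend and robust options, 5 at 0.05 and 5 with the embryo mean (3 to 32). For the difference between the curcumin effects it was 0 to 1 over the arrays left out, with 1 without replicate 5 of wild-type with curcumin. The block changed no call of a bHLH-PAS gene. No label pairs the samples in any comparison. In those other than that of the strains under DMSO equal numbers also correlated, from 0.0575 upward. The means were 0.247 (curcumin in wild-type), 0.127 (curcumin in the mutant) and 0.162 (strains under curcumin). The best match was to the own number in 3 of 5, 3 of 4 and 4 of 4 pairs. The main fit leaves out the block in every comparison, and the block brought *cysl-2* with curcumin in *ahr-1(ju145)* past the threshold (limma adjusted p = 0.0917).

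Signs turned with the embryo mean for *aha-1* between the strains under curcumin (0.017), for *cky-1* with curcumin in *ahr-1(ju145)* (0.087) and in wild-type (0.0020), for *hif-1* with curcumin in *ahr-1(ju145)* (-0.0091), and for *sti-1* (0.046) and *swan-1* (0.059) with curcumin in *ahr-1(ju145)*. They turned for *hif-1* between the strains under curcumin with array weights (0.0051), and for *hlh-34* with centred arrays in the difference of effects (-0.0022) and with quantile normalization between the strains under curcumin (-0.0018) and DMSO (-0.016). Over the arrays left out, the difference of effects ran from -0.066 to 0.14 for *cky-1* and from -0.048 to 0.082 for *hlh-34*. The strain difference ran from -0.039 to 0.027 for *hif-1* and from -0.036 to 0.093 for *hlh-34* under curcumin, and from -0.026 to 0.039 for *hlh-34* under DMSO. The cause of these changes was not tested. *cky-1* and *hlh-34* have no value under the filter on dim probe sets, which removes them.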

Other observations

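*ahr-1* and *aha-1* both lie on chromosome I, and the genes between them in the order of the reference gene table were counted. Of 225 probe sets with 1 symbol in that stretch, 2 were called higher and 4 lower in *ahr-1(ju145)* under DMSO (2.67%). The share was 1.72% on all of chromosome I, 1.40% on chromosome V, which holds *hif-1*, *cky-1* and *hlh-34*, and 2.36% on chromosome X. The median difference was 0.01 in the stretch and on chromosome I. The genes called in the stretch were *cfi-1*, an ARID factor of neuron identity (-0.74, limma adjusted p = 0.0249), F10G8.12 (-0.51, adjusted p = 0.0756), F10G8.8 (-0.41, adjusted p = 0.093), *rig-5*, an immunoglobulin domain protein of neurons (-0.38, adjusted p = 0.0756), T05F1.15 (0.63, adjusted p = 0.041) and C36F7.19 (0.45, adjusted p = 0.036).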
